A study of Mus musculus with 9 samples.

Results

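The microRNA (miRNA) cluster of miR-183, miR-96 and miR-182 was examined in the tibialis anterior (TA) muscle of mice with cancer cachexia. Its members were taken by name from the count tables and comprised 4 of the 1915 mature miRNAs listed: mmu-miR-183-5p, mmu-miR-183-3p, mmu-miR-182-5p and mmu-miR-96-5p. All 4 had at least 1 count among the 932 miRNAs with any count, and 2 of them, miR-182-5p and miR-183-5p, belonged to the 304 miRNAs that exceeded 32 counts in 1 or more libraries and that, by the criterion of the study, were expressed. Small RNA libraries of 4 control mice, injected with PBS, were compared with those of 5 mice bearing tumors of Lewis Lung Carcinoma (LLC), a mouse lung carcinoma cell line of which 750000 cells had been placed under the skin of each flank 22 days earlier. The labels give C57BL/6J mice of 10 weeks, whereas the series' design text gives male C57BL/10 mice of 8 weeks. Control mice are called C1 to C4 and LLC mice L1, L2, L3, L5 and L6. The sixth LLC library (L4) had been removed by the authors and was not analysed here. Tumors grew from 1 transplanted cell line, and the muscle was sequenced whole, so that fewer cells of a type and less RNA per cell cannot be told apart.

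MicroRNAs are short RNAs that guide silencing complexes to messenger RNAs, mainly by pairing through the seed, the bases 2 to 8 from their 5′ end. The hairpins of miR-183, miR-96 and miR-182 are regarded as products of a common primary transcript and are best known from sensory cells, such as those of the retina, the inner ear and sensory ganglia, and from carcinomas. In skeletal muscle, miR-182 is known to repress Foxo3, a transcription factor that switches on genes of protein breakdown during atrophy. In other cells, miR-96 and miR-182 are known to repress the related Foxo1.

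On GRCm38, Mir183 lies on chromosome 6 from 30169668 to 30169737, Mir96 from 30169446 to 30169551 and Mir182 from 30165918 to 30165992. All 3 are on the minus strand, in the order miR-183, miR-96, miR-182 of transcription. The first 2 are separated by 116 bases and the last 2 by 3453 bases. No other gene of the GENCODE annotation overlaps the span of 3820 bases, and the nearest protein-coding genes are Nrf1, 12459 bases away, and Ube2h, 41551 bases away on the other side. The mature sequences from RefSeq (GRCm38.p6) are shown with the seed in capitals, since the seeds set the targets of the guide arms and show what they share:
miR-183-5p: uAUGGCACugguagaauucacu
miR-96-5p: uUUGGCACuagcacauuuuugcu
miR-182-5p: uUUGGCAAugguagaacucacaccg
miR-183-3p: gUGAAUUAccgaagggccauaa
Counted from the 5′ end, the first 8 bases of miR-183-5p differ from those of miR-96-5p by A2U, and those of miR-182-5p differ from those of miR-96-5p by A8C. Between miR-183-5p and miR-182-5p both A2U and C8A separate the starts, while 18 of 22 aligned bases are the same. No other mature mouse miRNA of RefSeq starts with the same 8 bases as a member, and the authors' mapping allowed no mismatch in the first 8 bases of a read. The table of counts does not show the reads themselves, so that the rest of each read could not be checked against its member. The seed of miR-96-5p is also that of miR-1271-5p (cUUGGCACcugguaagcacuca), which was not analysed here, and miR-96-5p and miR-182-5p share bases 2 to 7 with each other.

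The libraries held 4992339 to 6548379 counts in the control group and 6216566 to 7833161 in the LLC group. Values are given as CPM, the counts of a miRNA per 1000000 counts of the library, after TMM scaling, which corrects for differences in composition between libraries. The TMM factors ranged from 0.762 in L5 to 1.15 in C2. A level of 3 counts, used as the floor of detection, was worth 0.344 to 0.593 CPM. All members are between 22 and 25 bases long, so that their CPM were set side by side without a length correction. Whether the libraries recovered different sequences equally was not tested, so comparisons between miRNAs are of counts. The authors kept all best alignments, so a read that fits several miRNAs could be counted for each. Intervals on counts cover counting error only and leave out variation between mice. The reads carried no molecular identifiers.

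miR-182-5p, the arm known for Foxo3, had most of the counts of the cluster. Of the counts of the 4 arms, it made up 88.8 ± 3.52% in control mice (SD, n = 4) and 85.9 ± 7.61% in LLC mice (SD, n = 5). Its mean level of 31.8 CPM was higher than that of 149 of the 304 expressed miRNAs, close to the middle of the muscle's miRNAs. By contrast, miR-183-5p was at 4.40 CPM on average, above 24 of the 304. It passed the filter on low counts through 2 libraries, both of the LLC group, so that its presence among the expressed miRNAs is not independent of a higher level there. Of miR-96-5p, 14 counts were found in all libraries together, and of miR-183-3p a single one. The 2 remaining arms of the hairpins, miR-182-3p and miR-96-3p, had 0 counts in each of the 9 libraries.

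In the control mice, miR-182-5p lay at 25.6 CPM in C1 (189 counts), 25.7 in C2 (194 counts), 31.2 in C3 (176 counts) and 26.9 in C4 (136 counts). In the LLC mice it lay at 50.5 CPM in L1 (299 counts), 27.9 in L2 (171 counts), 25.9 in L3 (195 counts), 25.9 in L5 (131 counts) and 46.9 in L6 (409 counts). Thus, L1 and L6 were above every control mouse, and the other 3 LLC mice were within the range of the control mice. The group means were 27.3 ± 2.62 CPM (SD, n = 4) and 35.4 ± 12.2 CPM (SD, n = 5). The log2-fold change was 0.38 (standard error 0.212, 95% interval -0.04 to 0.79), and its adjusted p from edgeR was 0.329 (quasi-likelihood test, Benjamini-Hochberg over the 304 expressed miRNAs). The exact permutation test did not resolve a difference between the groups (two-sided, p = 0.325), which with 4 and 5 mice does not show that there is none. Without L1 the log2-fold change was 0.22 and without L6 it was 0.25. The control mice varied by 9.59% of their mean and the LLC mice by 34.5%, whereas counting alone gives 6.88% at the mean count of this arm.

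For miR-183-5p, a guide arm with a seed of its own, C1 had 1.63 CPM (12 counts), C2 had 2.52 (19 counts), C3 had 4.43 (25 counts) and C4 had 4.54 (23 counts). In the LLC group, L1 had 7.09 CPM (42 counts), L2 had 4.24 (26 counts), L3 had 2.92 (22 counts), L5 had 8.88 (45 counts) and L6 had 3.32 (29 counts). L1 and L5 were above all control mice, while L2, L3 and L6 were within their range. With 12 counts in C1, the exact Poisson interval of its CPM was 0.840 to 2.84, and with 45 counts in L5 it was 6.48 to 11.9. The means were 3.28 ± 1.44 CPM (SD, n = 4) and 5.29 ± 2.59 CPM (SD, n = 5). The log2-fold change was 0.69 (standard error 0.382, 95% interval -0.06 to 1.44), with an adjusted p of 0.328 in edgeR. Here too, the exact permutation test did not resolve a difference between the groups (two-sided, p = 0.206). The control mice varied by 44.0% of their mean and the LLC mice by 48.9%, against 19.2% from counting alone. Single mice carried much of the difference: the log2-fold change was 0.44 without L5 and 0.45 without C1. L1 and L5, highest in this miRNA, also had the lowest TMM factors (0.876 and 0.762), and C1 and C2, lowest in it, had the highest (1.14 and 1.15). Across the mice, r of miR-183-5p with the TMM factor was -0.94, and -0.89 for levels on library totals alone. For miR-182-5p these values were -0.14 and 0.34. With library totals in place of TMM factors, the log2-fold change of miR-183-5p was 0.51. The part of composition in it was otherwise not tested. The study lists miR-183-5p among those it found changed in the same libraries, so its direction here is not independent evidence. With the study's filter and thresholds, DESeq2 here gave it an adjusted p of 0.290 and did not call it.

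**Figure D1:**
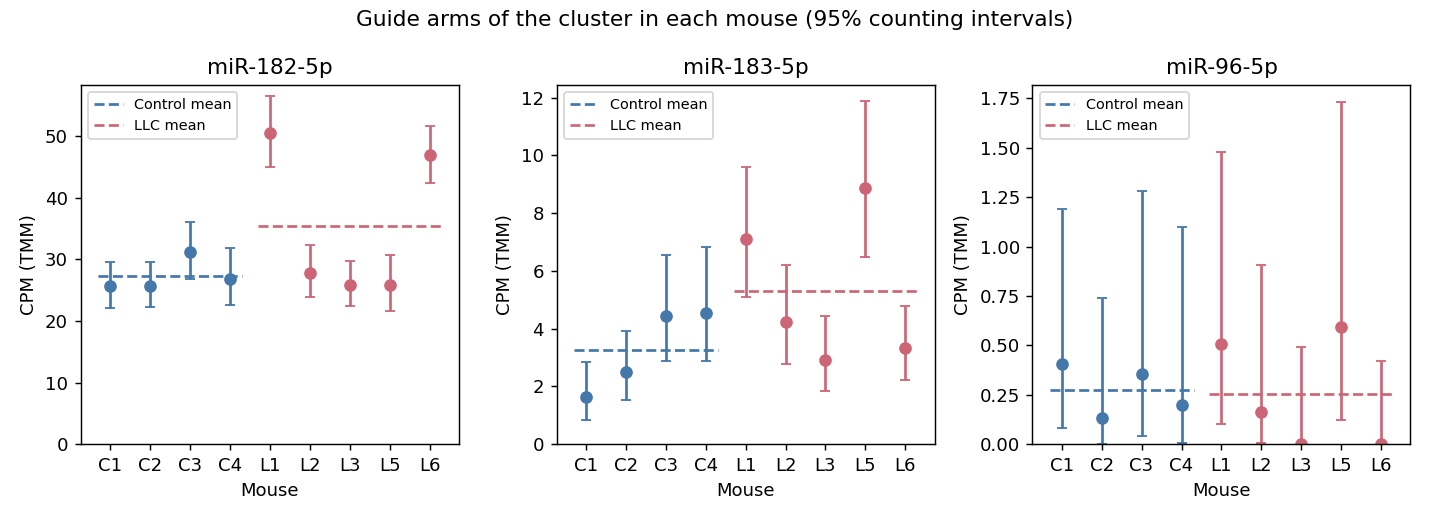
CPM after TMM scaling (y axes) of miR-182-5p, miR-183-5p and miR-96-5p in each mouse (x axes; C, control; L, LLC), with exact 95% Poisson intervals as bars and group means as dashed lines. L1 and L6 were above the control mice for miR-182-5p, L1 and L5 for miR-183-5p, and the intervals of miR-96-5p overlapped throughout.

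miR-96-5p, whose seed differs from that of miR-182-5p only in its last base, was at the limit of the depth. There were 3, 1, 2 and 1 counts in C1 to C4, and 3, 1, 0, 3 and 0 counts in L1, L2, L3, L5 and L6. No library exceeded the floor of 3 counts, so no direction is read from its values. The summed counts were 7 in each group, a ratio of LLC to control of 0.768 after scaling to depth, with an exact 95% counting interval of 0.230 to 2.57. In edgeR's fit of all 932 miRNAs with a count, the log2-fold change was -0.27 (95% interval -1.94 to 1.40; edgeR's adjusted p = 0.909). The interval spans changes in both directions, so no difference was resolved at this depth. For miR-183-3p, the passenger arm of miR-183, the single count was in L6, and no fold change is given for a single count. The 3p arm was 1 of 244 counts of the miR-183 hairpin, which is 0.410% (95% Wilson interval 0.0724 to 2.28%), and a single count allows no comparison of the groups.

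Thus, 0 of the 3 members that could be fitted passed an adjusted p of 0.05 and a fold change of 1.5 in edgeR. Of all 304 expressed miRNAs this test called 0, a background of 0%, and DESeq2 called 7 (2.3%), with neither miR-183-5p nor miR-182-5p among them. Unadjusted, 50 of the 304 (16.4%) were at or under a p of 0.05 in edgeR and 22 (7.24%) had a fold change of 1.5 as well, whereas miR-183-5p and miR-182-5p were above it, with 0.0899 and 0.0951. In the fit of the 932 miRNAs with a count, their unadjusted values from edgeR were 0.00864 and 0.0132, where 91 (9.76%) were at or under 0.05. After adjustment they were 0.212 and 0.256 in edgeR, and 22 of the 932 (2.36%) were called. Both were higher in the LLC group, as were 141 of the 304 (46.4%), and the median log2-fold change of the 304 was -0.02. The fold change of miR-183-5p was 1.62 in edgeR, and 13 of the 304 (4.28%) had one of at least 1.5 in this direction. The CPM of the groups did not overlap for 18 of the 304 (5.92%) and overlapped for both members. Over the 6 permutation tests on the members and their ratios, of which 2 rest on the single count of miR-183-3p and could not have passed, the smallest p adjusted by Benjamini-Hochberg was 0.976, where the smallest unadjusted p that 126 splits allow is 0.00794.

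**Figure D2:**
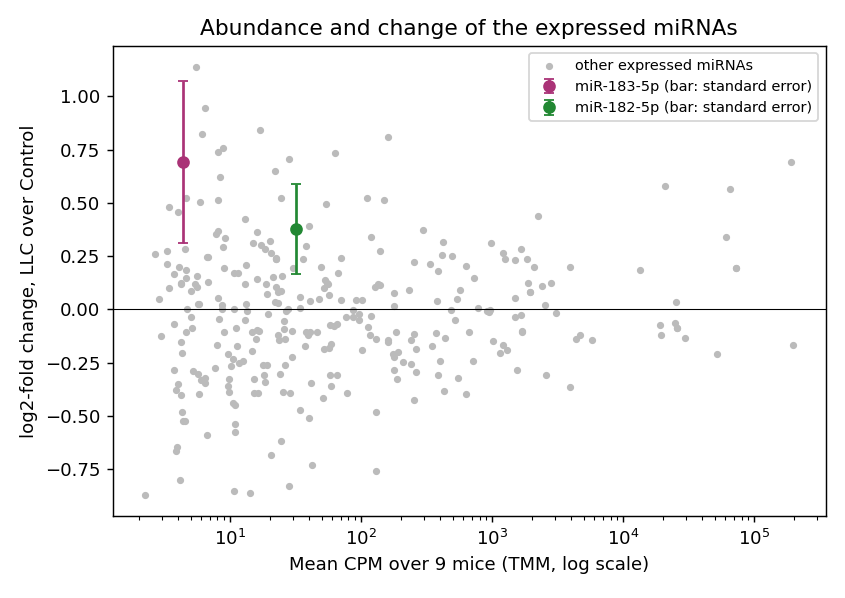
Mean CPM over the 9 mice (x axis, log scale) and log2-fold change of LLC over control (y axis) for the 304 expressed miRNAs, with miR-183-5p and miR-182-5p in color and bars for their standard errors. miR-183-5p, at 4.40 CPM and a log2-fold change of 0.69, lies among the miRNAs of low abundance with wide scatter, and miR-182-5p lies at 31.8 CPM and 0.38.

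**Figure D3:**
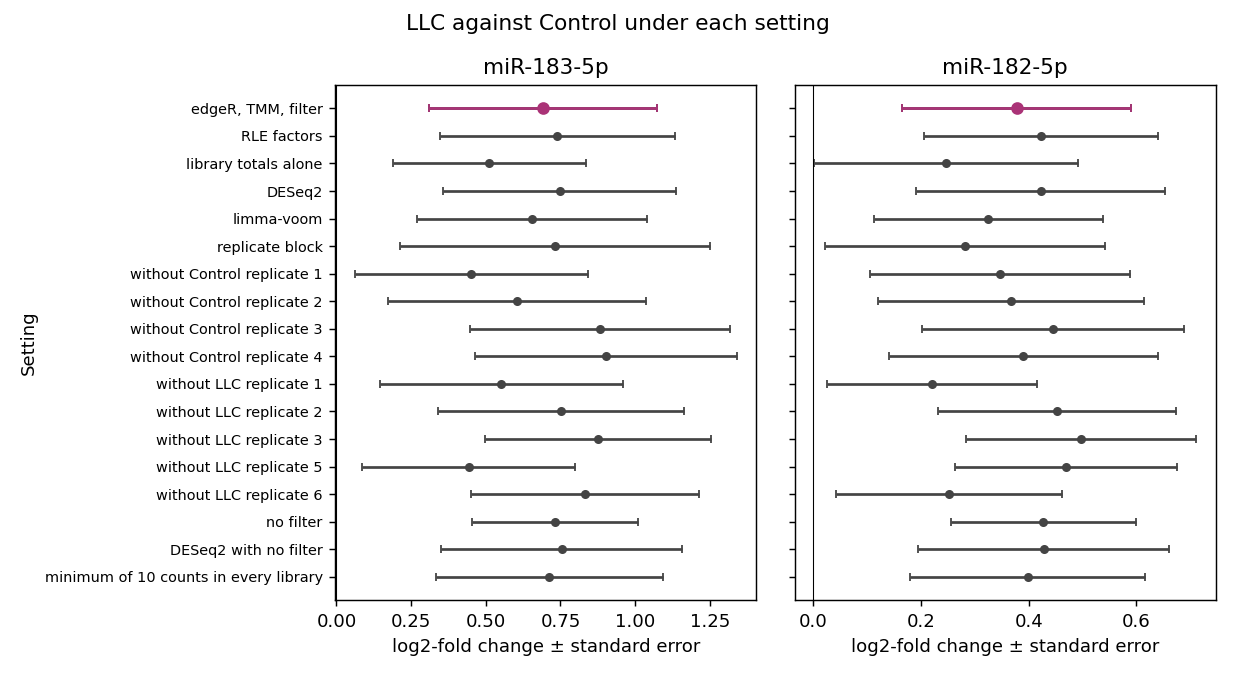
Log2-fold change with its standard error (x axes) of miR-183-5p and miR-182-5p under each normalization, test and filter and without each mouse in turn (y axis), with the main value in color at the top. All values lie above 0, from 0.44 to 0.90 for miR-183-5p and from 0.22 to 0.50 for miR-182-5p.

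Whether the hairpins varied together was asked with the correlation of log2 CPM across the 9 mice. For miR-183-5p and miR-182-5p, Pearson's r was 0.31 (exact permutation test, p = 0.423) and Spearman's rho 0.50 (exact permutation test, p = 0.178). Without C1 and L5, which lay farthest from the median of miR-183-5p, r was 0.56 (exact permutation test, p = 0.225), and r of the deviations from the group means was 0.13. With library totals in place of TMM factors, r was -0.07. L1 was high in both arms, L5 was high in miR-183-5p at a miR-182-5p level of the control mice, and L6 was high in miR-182-5p at a miR-183-5p level of the control mice. For miR-96-5p, r was 0.49 with miR-183-5p (exact permutation test, p = 0.187; rho 0.57, p = 0.121) and -0.02 with miR-182-5p (exact permutation test, p = 0.964; rho -0.10, p = 0.810). The former was 0.81 without C1 and L5 (exact permutation test, p = 0.0302), 0.87 without C1 alone (exact permutation test, p = 0.0062) and 0.68 on linear CPM (exact permutation test, p = 0.0415), but these values rest on 0 to 3 counts of miR-96-5p per library. After Benjamini-Hochberg adjustment over the 6 coefficients, the smallest p was 0.374.

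**Figure D4:**
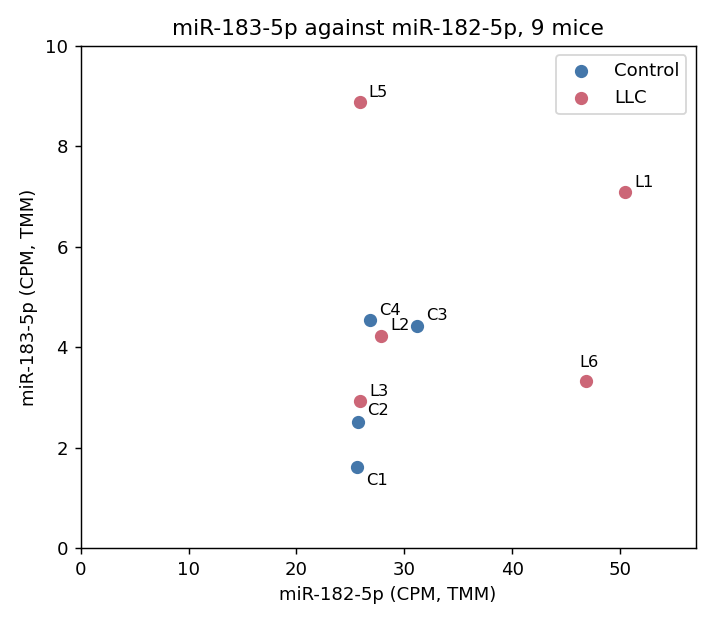
CPM after TMM scaling of miR-182-5p (x axis) and miR-183-5p (y axis) in each of the 9 mice, with control mice in blue and LLC mice in red. The points do not follow one line: L5 lies high at 8.88 CPM of miR-183-5p and 25.9 CPM of miR-182-5p, L6 lies far right at 46.9 CPM of miR-182-5p and 3.32 CPM of miR-183-5p, and L1 is high in both.

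As a frame for this r, the same coefficient was computed for the 110 pairs of expressed hairpins that lie within 10000 bases of each other on the same strand, each hairpin taken by the more abundant of the arms that no other hairpin shares. Arms encoded by several hairpins, such as miR-24-3p and let-7c-5p, were thus left out. Such hairpins were taken by their other arm where it was expressed, such as miR-24-2-5p and let-7c-2-3p. Some pairs therefore set a guide arm against a passenger arm, unlike miR-183-5p and miR-182-5p. The median r of the 110 pairs was 0.09, with a range of -0.88 to 0.96, and 71 pairs were below the 0.31 of miR-183-5p and miR-182-5p. Most of the pairs lie on chromosome 12, and many share a cluster or a hairpin, so they are not independent. The frame therefore describes mostly that chromosome and not neighbouring hairpins in general. Among the 62 pairs with a mean count of at most 60 in the rarer arm, which lie on 4 chromosomes, the median r was -0.10.

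A ratio within a library needs no scaling between libraries. Per 100 counts of miR-182-5p, miR-183-5p had 6.35 counts in C1, 9.79 in C2, 14.2 in C3 and 16.9 in C4. The ratio was 14.0 in L1, 15.2 in L2, 11.3 in L3, 34.4 in L5 and 7.09 in L6. L5 was above all other mice, L6 was close to C1, the lowest control mouse, and the remaining LLC mice were within the range of the control mice. The control mice averaged 11.8 ± 4.68 (SD, n = 4) and the LLC mice 16.4 ± 10.5 (SD, n = 5), and the log2 ratios differed between the groups by 0.35 (exact permutation test, two-sided, p = 0.516).

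Of the 303 other expressed miRNAs, those whose log2 CPM followed miR-183-5p most closely over the 9 mice were miR-10b-5p (r = 0.96), miR-204-5p (0.96), miR-191-5p (0.95), miR-196b-5p (0.94) and miR-10a-5p (0.93), while miR-182-5p was at rank 98. In the order of likeness to miR-182-5p, miR-183-5p was at rank 65 of 303. Of these, miR-10b, miR-10a and miR-196b are encoded in the Hox gene clusters, and miR-10b-5p was one of the most abundant miRNAs of the muscle. With C1 and L5 left out, r of miR-10b-5p was 0.94, for deviations from the group means it was 0.96, and with library totals alone it was 0.93. Per 1000000 counts of miR-10b-5p, miR-183-5p had 18.3 in C1, 23.1 in C2, 21.9 in C3 and 27.0 in C4. The corresponding values were 24.8 in L1, 21.7 in L2, 23.0 in L3, 20.9 in L5 and 29.9 in L6. The ratio was thus nearly level over mice in which miR-183-5p itself ranged from 12 to 45 counts, with 22.6 ± 3.61 for control mice (SD, n = 4) and 24.1 ± 3.59 for LLC mice (SD, n = 5). The SD of its log2 was 0.203, against the 0.298 that counting alone gives for miR-183-5p and a median of 0.801 over the 303 expressed miRNAs set against miR-10b-5p. Of the 303, 1 had a lower SD, miR-191-5p. These miRNAs were picked for their likeness out of 303, and no test is given. Whether all reads counted as miR-183-5p came from miR-183-5p could not be checked without the reads, a limit that applies to each of its values given here.

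**Figure D5:**
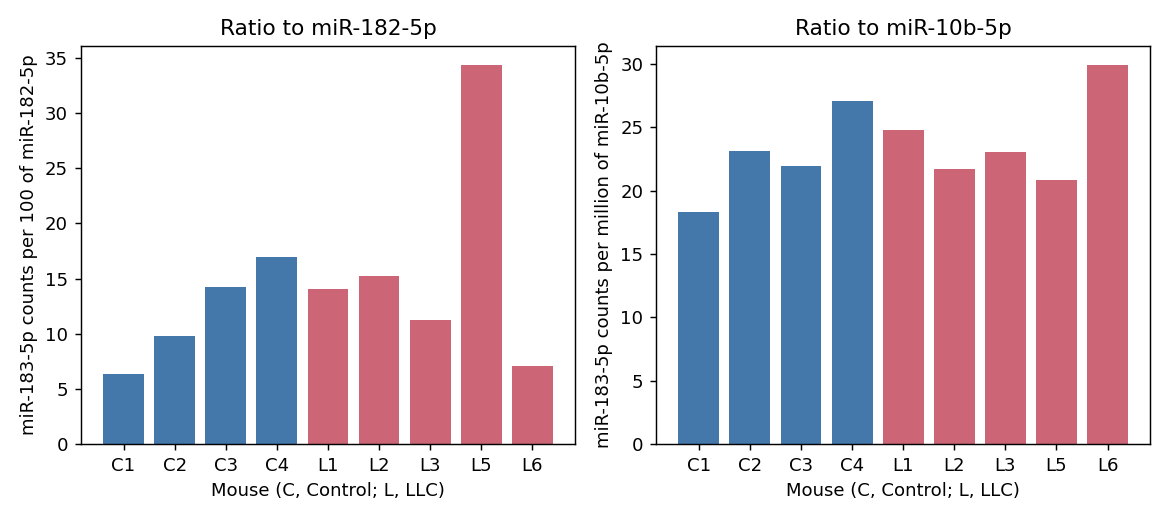
Counts of miR-183-5p per 100 counts of miR-182-5p (left y axis) and per 1000000 counts of miR-10b-5p (right y axis) in each mouse (x axes), as bars from 0, with control mice in blue and LLC mice in red. The ratio to miR-182-5p runs from 6.35 to 34.4, whereas the ratio to miR-10b-5p stays between 18.3 and 29.9.

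Other miRNAs known to repress FoxO factors, or the ubiquitin ligases that these induce, were compared in the same fit. Of 9 listed, 8 were expressed, 4 with a positive and 4 with a negative log2-fold change. The 4 positive ones include both miR-486a-5p and miR-486b-5p, whose counts are equal, so that the tally and the median of the list count the same values more than once. None of the 8 was called in edgeR (background 0% of the 304), and 1 had an unadjusted p under 0.05. It was miR-223-3p, an abundant miRNA of myeloid cells, at 20.8 ± 1.89 CPM for control mice (SD, n = 4) and 33.9 ± 8.31 CPM for LLC mice (SD, n = 5), with a log2-fold change of 0.70 (standard error 0.183, edgeR's adjusted p = 0.0936). The median log2-fold change of the list was 0.03, beside -0.02 for all expressed miRNAs. For miR-486a-5p, which targets Foxo1 and whose counts equal those of miR-486b-5p, the log2-fold change was 0.20 (standard error 0.189) at 66714 ± 15130 CPM for control mice (SD, n = 4) and 76375 ± 15637 CPM for LLC mice (SD, n = 5). For miR-27a-3p, a repressor of Foxo1, it was -0.20 (standard error 0.105), for miR-27b-3p -0.13, for miR-132-3p -0.14, for miR-155-5p 0.07 and for miR-23a-3p, which targets the ubiquitin ligases themselves, -0.01. miR-212-3p had 3 to 15 counts per library and was not fitted. Messenger RNAs, Foxo3 among them, were not analysed here.

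Markers of other cell types were summed in the same libraries. Of 5 neuronal miRNAs, 1 was expressed, miR-9-5p, and their summed level was 4.15 to 7.15 CPM in the control group and 3.26 to 8.10 CPM in the LLC group. miR-124-3p, the defining neuronal miRNA, had 0 to 4 counts per library. Of 7 epithelial miRNAs, 1 was expressed, miR-203-3p, and the 7 summed to 19.8 to 23.6 CPM in control mice and 12.9 to 24.1 CPM in LLC mice, a level between those of miR-183-5p and miR-182-5p. Among the others, miR-141-3p had 8 to 20 counts per library, miR-205-5p 1 to 23, miR-429-3p 1 to 5, and miR-200a-3p, miR-200b-3p and miR-200c-3p 0 to 3 each. In L1 and L6, the mice with the most miR-182-5p, the epithelial sum was 22.3 and 24.1 CPM, beside 19.8 to 23.6 CPM in control mice. Members of the list differed in these mice. miR-205-5p was at 2.87 and 2.64 CPM, beside 1.51 ± 0.620 CPM in control mice (SD, n = 4) and 0.790 CPM in L5. miR-203-3p was at 15.2 and 17.9 CPM, beside 16.7 ± 2.65 CPM in control mice (SD, n = 4). For miR-141-3p the values were 3.38 and 2.29 CPM, beside 2.44 ± 0.497 CPM in control mice (SD, n = 4). The part of these cells in the level of the cluster was not tested. None of the 3 erythroid miRNAs was called in edgeR, and all 3 had an unadjusted p under 0.05 and a log2-fold change below 0. They summed to 215 to 325 CPM in the control group and 92.4 to 220 CPM in the LLC group, with 92.4 CPM in L1 and 110 CPM in L5, the mice with the most miR-183-5p. The 5 leukocyte miRNAs summed to 691 to 800 CPM and 583 to 742 CPM, with 4 log2-fold changes above and 1 below 0 and none called. Of these 5, 2 had an unadjusted p under 0.05 in edgeR. They were miR-223-3p, with a log2-fold change of 0.70, and miR-150-5p, with -0.38 (standard error 0.105, edgeR's adjusted p = 0.100). The 6 skeletal muscle miRNAs summed to 77613 to 102496 CPM and 85383 to 125067 CPM. Of the 5 that were expressed, miR-486a-5p had a log2-fold change above 0 and the other 4 had one below 0, with none called. The sum was carried mostly by miR-486a-5p and by miR-133a-3p, which was at 20321 ± 3384 CPM in control mice (SD, n = 4) and 18718 ± 1381 CPM in LLC mice (SD, n = 5). Other muscle miRNAs were low in these counts, with miR-1a-3p at 20.9 and 17.4 CPM and miR-499-5p at 5.26 and 3.72 CPM on average in control and LLC mice, and with 5 counts of miR-206-3p in all. The part of these cells in the values of miR-183-5p was not tested.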

How the data were processed

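Per the paper's methods, the authors sequenced TruSeq small RNA libraries (50 bp, single-end), mapped the reads to the mature miRNAs of miRBase version 21 with Bowtie, with no mismatch in the first 8 bases and all best alignments kept, and deposited counts per mature miRNA and library. These deposited counts are whole numbers without normalization. Read trimming, the Bowtie version and the counter used for miRNAs are not given in the sources used here.

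For the 304 miRNAs exceeding 32 counts in 1 or more libraries (the study's criterion), groups were compared by the quasi-likelihood test of edgeR 4.0.16 with TMM factors, under R 4.3.3. A call needed a p of 0.05 after Benjamini-Hochberg adjustment and a fold change of 1.5. No block was fitted. miR-96-5p, under this minimum, was fitted among all 932 miRNAs with a count. Library sizes were totals over all 1915 miRNAs (4992339 to 7833161). Log2 CPM used a prior count of 2, ratios of counts a pseudocount of 0.5, and exact permutation all splits of the 9 mice. Intervals of log2-fold changes are normal 95% intervals. DESeq2 1.42.0 and limma 3.58.1 were alternatives. The tests were checked on simulated data. Labels do not say more of the replicates than that they are different mice.

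The members, the lists and the tests were chosen with earlier results of these data known. The rule for the miRNAs named was the 4 members, the other arms of their hairpins, miRNAs with the same seed, the FoxO-linked list and the 5 expressed miRNAs most correlated with miR-183-5p. The frame of neighbouring hairpins and the ratio to miR-10b-5p were chosen after seeing the data. Within groups, the lowest chi-square per degree of freedom between 2 libraries was 124, which shows only that no library was a copy of another. Each library was counted as a sample because the labels give different mice. Sequences are from RefSeq and positions from GENCODE M21 and RefSeq, all on GRCm38.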

Additional observations from a re-analysis of the deposited data

How the results depend on the processing

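In each of the 8 alternatives of normalization, test, filter and block and with each mouse left out, miR-183-5p and miR-182-5p stayed higher in the LLC group and not called. With each mouse left out, their log2-fold changes ranged from 0.44 to 0.90 and from 0.22 to 0.50, and over all settings their adjusted p ranged from 0.184 to 0.758 and from 0.184 to 0.785. The direction of miR-96-5p was not settled: without a mouse its log2-fold change ranged from -0.82 to 0.12 (0.01 without Control 1, 0.08 without L3 and 0.12 without L6), and its difference in log2 CPM from -0.39 to 0.02 (0.0181 without L3 and 0.0055 without L6). Correlations depended on settings more. Leaving out each mouse, r ranged from 0.01 to 0.59 for miR-183-5p and miR-182-5p, from 0.27 to 0.87 for miR-183-5p and miR-96-5p, and from -0.45 to 0.42 for miR-182-5p and miR-96-5p (0.06 without Control 1, 0.02 without Control 4, 0.12 without L5, 0.42 without L6). For the first pair r was -0.0725 with library totals alone, for the second 0.68 on linear CPM, where it passed the threshold, and for the third 0.0447 on linear CPM. The causes were not tested. Of all miRNAs, edgeR called 22 with no filter, DESeq2 called 7 and, with no filter, 2, and leaving out a mouse gave 0 to 8 calls (1 without L1, 8 without L3). At an unadjusted p, an alternative added after seeing the data, 22 passed. Library totals alone shifted the median log2-fold change, -0.02 over the 304 expressed miRNAs, to -0.17. Where 2 choices were combined, no filter and L3 left out, miR-183-5p had a log2-fold change of 0.90 and an adjusted p of 0.0466 in edgeR.

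The labels number control mice 1 to 3 and LLC mice 1 to 3 alike, though each is an animal of its own. Deviations from the group means, compared for equal numbers, had correlations of -0.23, -0.09 and -0.25, and 0 of the 3 control mice was closest to its own number. With the replicate number as a block, on these 6 mice, the log2-fold change was 0.73 for miR-183-5p (adjusted p = 0.709, edgeR) and 0.28 for miR-182-5p (adjusted p = 0.728, edgeR), and -0.45 for miR-96-5p (adjusted p = 1, edgeR). For miR-183-3p, with 1 count, no fold change was computed. The depth limits miR-96-5p and miR-183-3p, whose counts did not exceed 3 in any library.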
